A study of Mus musculus with 52 samples.

Results

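Mouse osteosarcomas that carried 1 missense allele of Trp53 were compared with osteosarcomas that carried 2 conditional alleles and no missense allele. The comparison used 34 of the 52 libraries of the series, namely all whose column names lack the prefix R1002. These were 10 p53fl/fl libraries against 24 missense libraries, of which 13 were p53R172H/fl and 11 were p53R245W/fl. The p53fl/fl tumours carried 2 conditional Trp53 alleles. The p53R172H/fl tumours carried 1 conditional allele and 1 p53R172H allele, in which an arginine is changed to histidine. The p53R245W/fl tumours carried 1 conditional allele and 1 p53R245W allele, in which another arginine is changed to tryptophan. All 3 groups thus carried a conditional or missense allele at both copies of the gene, the labels do not give how far the conditional alleles were recombined in the tumours, and no group with 2 unmodified copies was analysed here. The labels name neither the Cre driver nor the age of the mice, nor whether each library came from a separate mouse, so p-values measure the spread between these libraries. A gene counted as shared by both missense groups where the pooled test called it and where each missense group by itself differed from p53fl/fl in the same direction. Both of those single-group differences use the same 10 p53fl/fl libraries.

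p53 is a transcription factor that is kept scarce in unstressed cells by Mdm2, a ubiquitin ligase whose own gene p53 switches on. On damage p53 builds up and raises genes such as Cdkn1a, an inhibitor of cyclin-dependent kinases. Missense changes in its DNA-binding domain are the common form of p53 alteration in many cancers and often leave a full-length protein that accumulates, whereas osteosarcoma, a tumour of bone-forming cells, also often loses the gene outright.

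The bone label was checked on Col1a1, the main collagen of bone, which ranged from 1061 to 96065 CPM (counts scaled to a common library size) over the 34 libraries, and on Sp7, an osteoblast transcription factor, which ranged from 0.189 to 610 CPM. The lowest Col1a1 levels were in p53R245W/fl tumours 1831, 1835 and 1580. Column names divide the libraries into sets that go with genotype. The first set, called the F set here, consists of 8 p53fl/fl libraries (prefixes FM, FNM) and 8 p53R172H/fl libraries (prefixes WFM, WFNM), and has 0 p53R245W/fl libraries. The R553 set holds 2 p53fl/fl, 5 p53R172H/fl and 11 p53R245W/fl libraries. The F set is in lane L001. Within the R553 set lane L003 holds the 2 p53fl/fl and 5 p53R172H/fl libraries with 1 p53R245W/fl library (tumour 1580), and lanes L004 and L005 hold the other 10 p53R245W/fl libraries and no other genotype. Lane and genotype cannot be told apart for those 10, whereas p53R172H/fl and p53fl/fl share a lane in each set. What the prefixes stand for is not given. Set was therefore a term of the reported test, and the same test without that term is given beside it.

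With the set term, 4 of 18959 genes were called at an adjusted p under 0.05 (edgeR quasi-likelihood test, Benjamini-Hochberg), which is 0.0211% of the genes tested. Of these, 3 were higher in missense tumours (0.0158%) and 1 was lower (0.00527%), and all 4 had the same direction in each missense group. They were Trp53, the locus AA465934 and the small nucleolar RNA gene Gm22486, which rose, and Fmr1, which fell. Without the set term, 279 genes were called (1.47%), 72 of them higher (0.38%) and 207 lower (1.09%), and 278 of the 279 had the same direction in each missense group. Over all 18959 genes, 11325 had the same direction in each missense group with the set term. The pooled value is the mean of both group differences, so shared direction among called genes is not a separate test. Both fits called 3 genes, namely Trp53, AA465934 and Fmr1. The count without the set term moved with every p53fl/fl library. It was between 85 and 182 when tumour 562, 1427, 1431, 1512, 1522, 1606, 1640 or 1979 of the F set was left out, 921 without tumour 4183 and 960 without tumour 6019, the pair of the R553 set.

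**Figure D1:**
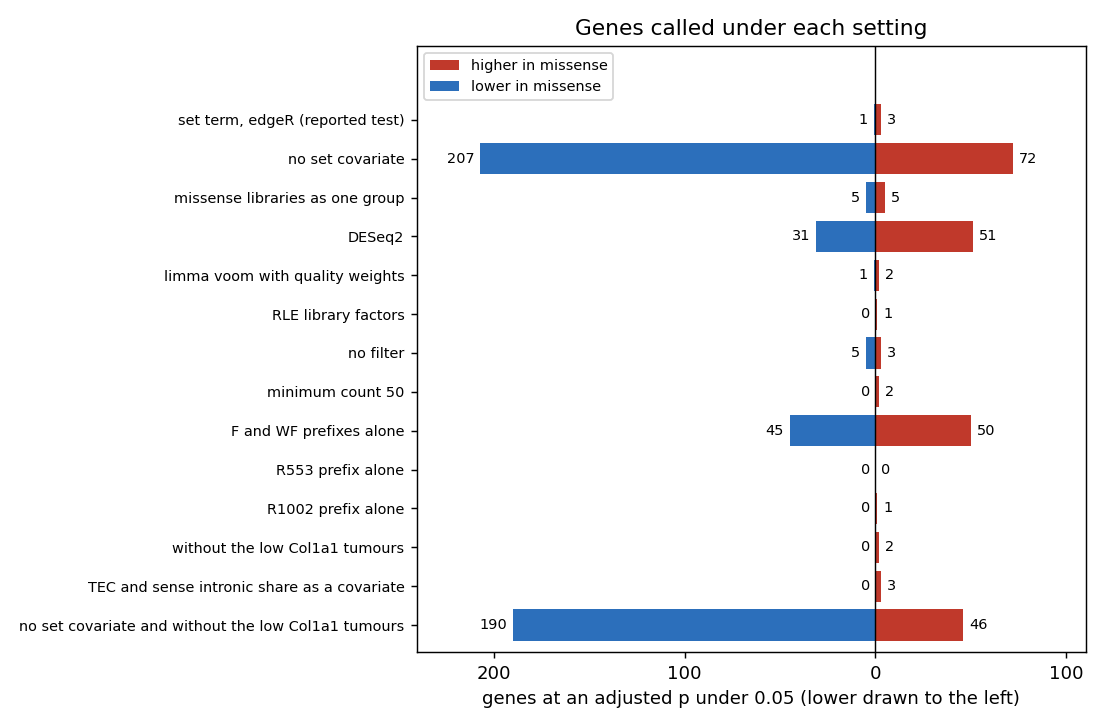
Number of genes at an adjusted p under 0.05 under each setting, with genes higher in missense tumours drawn to the right in red and lower genes to the left in blue. The reported test called 3 higher and 1 lower, the same test without the set term called 72 higher and 207 lower, and the R553 libraries alone gave 0 calls. The bar for the F and WF prefixes compares p53R172H/fl with p53fl/fl only, and its calls were 0.532% of the genes tested there, against 0% in the R553 libraries and 0.00549% in the R1002 libraries.

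Trp53 (ENSMUSG00000059552.13, GRCm38 chr11:69580359-69591873, + strand) was the gene with the smallest p in both fits. The 2 missense codons lie in different exons of transcript ENSMUST00000108658, the p53R172H codon in exon 5 of 11 at chr11:69588511-69588513 and the p53R245W codon in exon 7 at chr11:69589210-69589212. Both are read as arginine from the same 3 bases. The reference coding sequence around each is given because these are the positions that set the missense groups apart, with the codon in capitals (GENCODE M21, + strand).
Trp53, p53R172H codon: gaggtcgtgagaCGCtgcccccaccat
Trp53, p53R245W codon: gggggcatgaacCGCcgacctatcctt
The p53fl/fl libraries had a lowest, median and highest Trp53 level of 8.99, 15.9 and 19.9 CPM. The p53R172H/fl libraries had 27, 37.3 and 49.7 CPM. The p53R245W/fl libraries had 22.5, 32.9 and 51.9 CPM. Every one of the 24 missense libraries lay above every p53fl/fl library. The pooled rise was 2.46-fold, a log2 fold change of 1.30 (SE 0.17, adjusted p = 9.04e-05, edgeR). Each missense group rose by itself, by 1.33 (SE 0.16) for p53R172H/fl and 1.26 (SE 0.21) for p53R245W/fl on the log2 scale. The difference between the missense groups was -0.07 (SE 0.17, adjusted p = 0.865, edgeR), which does not show that they were equal. Within sets the log2 fold change was 1.16 in the F set, 1.78 in the R553 set and 1.51 in the 18 R1002 libraries. An earlier analysis of these data matched those 18 to tumours already among the 34. Here and below, fold changes within the F set compare p53R172H/fl alone with p53fl/fl. Those of the R553 set and the R1002 libraries pool both missense groups. The R553 value rests on 2 p53fl/fl libraries at 8.99 and 12.1 CPM and had an adjusted p of 0.499 (edgeR). Gene-level counts do not separate the alleles, and the exons removed from a recombined conditional allele are not named in the labels, so the counts do not check the genotype labels.

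AA465934 (chr11:83291699-83294632, + strand, annotated as a processed transcript) had the highest log2 fold change of the 4 called genes. Its lowest, median and highest level was 0.311, 0.732 and 2.26 CPM in p53fl/fl, 0.684, 3.59 and 7.15 CPM in p53R172H/fl, and 1.43, 4.39 and 12.8 CPM in p53R245W/fl. Of the missense libraries, 11 of 13 p53R172H/fl and 9 of 11 p53R245W/fl lay above the highest p53fl/fl library. The pooled rise was 4.31-fold, or 2.11 on the log2 scale (SE 0.41, adjusted p = 0.0483, edgeR), and 2.13 without the set term (adjusted p = 0.00213). The direction was the same in the F set (1.63), the R553 set (2.70) and the R1002 libraries (1.95). The locus overlaps Snord7, a small nucleolar RNA gene on the same strand, so reads of the pair cannot be told apart. With the set term the call was lost in 28 of 34 fits that each left out 1 library (highest adjusted p 0.127, edgeR), and without the term in 0 of 34.

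Fmr1 (chrX:68678541-68717963, + strand), which encodes an RNA-binding protein that restrains translation, was the only gene called lower with the set term. It had a lowest, median and highest level of 61.0, 74.4 and 87.6 CPM in p53fl/fl, 30.3, 46.8 and 58.8 CPM in p53R172H/fl, and 41.8, 56.4 and 76.8 CPM in p53R245W/fl. All 13 p53R172H/fl libraries and 8 of 11 p53R245W/fl libraries lay below the lowest p53fl/fl library. The pooled log2 fold change was -0.62 (SE 0.12, adjusted p = 0.0483, edgeR), with -0.75 in p53R172H/fl and -0.48 in p53R245W/fl. Without the set term it was -0.55 (adjusted p = 0.00453). Within sets it was -0.91 in the F set, -0.20 in the R553 set and -0.17 in the R1002 libraries. The call was lost in 29 of 34 single-library omissions with the set term (highest adjusted p 0.127, edgeR) and in 0 of 34 without it. Fmr1 is X-linked and the labels do not give sex. Y-linked Ddx3y exceeded Xist, the RNA of the silenced X chromosome, in 2 of 10 p53fl/fl, 1 of 13 p53R172H/fl and 5 of 11 p53R245W/fl libraries, and the part of this in the Fmr1 difference was not tested.

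**Figure D2:**
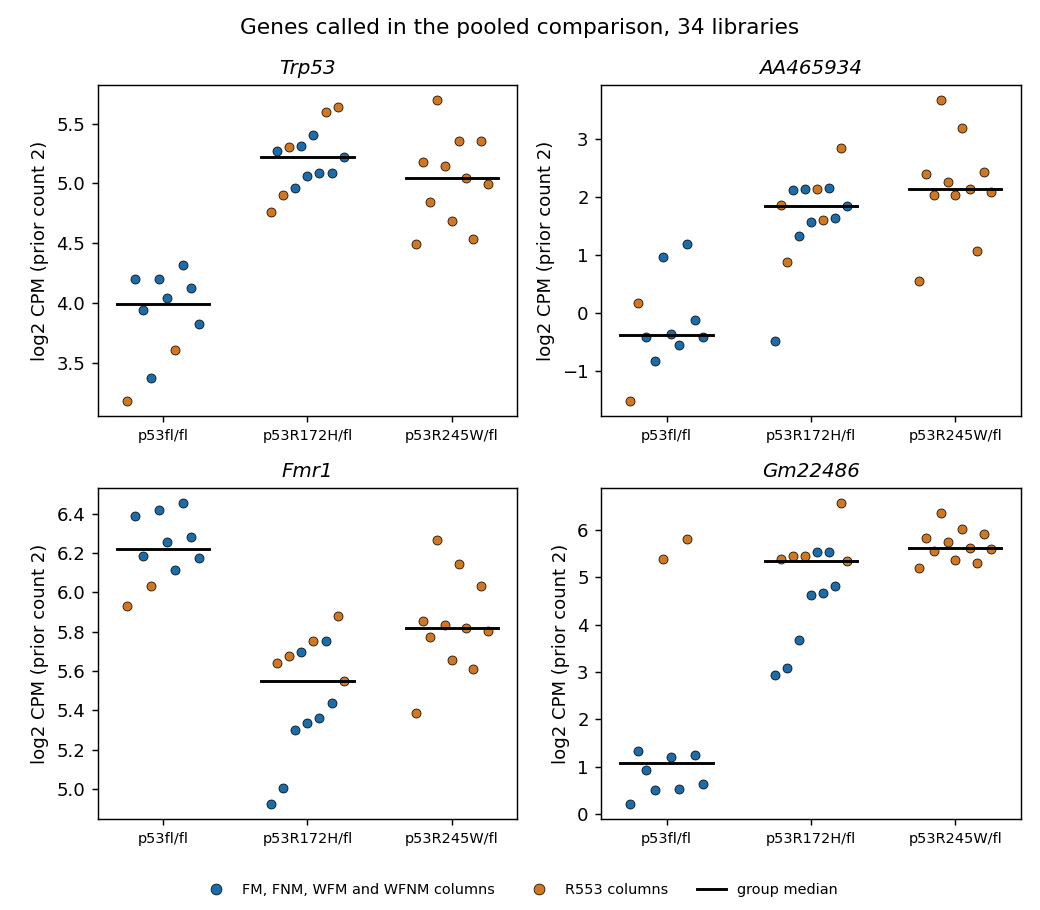
Level of the 4 genes called with the set term in each of the 34 libraries, as log2 CPM with a prior count of 2, by genotype. Points are libraries coloured by column prefix and black lines are group medians. Trp53 does not overlap between p53fl/fl and either missense group, whereas Gm22486 in the R553 libraries of p53fl/fl (41.6 and 55.4 CPM) sits among the missense libraries.

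Gm22486, the other called gene, is a small nucleolar RNA (snoRNA) gene within Ptcd3 on the same strand. snoRNAs guide chemical modification of ribosomal and other RNAs and are usually cut from introns of host genes. C/D snoRNAs pair with the target next to short C and D boxes and guide 2′-O-methylation, while H/ACA snoRNAs end in an ACA box and guide pseudouridylation. The Gm22486 sequence is shown because it passed the reported test, and Snord15a and Gm26165 because they were called higher without the set term; the last pair were chosen after their values were seen. Capitals mark TGATGA and CTGA in the first and last 20 bases (C/D letters), or ACA starting 6 bases before the 3′ end, all searched on the strand of the gene only (GENCODE M21, GRCm38).
Gm22486, chr6:71882557-71882693, - strand: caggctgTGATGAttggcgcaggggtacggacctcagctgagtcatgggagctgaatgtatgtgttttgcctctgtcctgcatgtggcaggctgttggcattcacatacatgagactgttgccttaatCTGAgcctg
Snord15a, chr7:99482785-99482932, - strand, within Rps3: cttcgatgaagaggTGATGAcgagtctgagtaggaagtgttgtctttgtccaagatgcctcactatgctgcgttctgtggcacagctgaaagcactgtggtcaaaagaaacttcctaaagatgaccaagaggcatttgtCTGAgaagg
Gm26165, chr2:144261589-144261726, - strand, within Snx5: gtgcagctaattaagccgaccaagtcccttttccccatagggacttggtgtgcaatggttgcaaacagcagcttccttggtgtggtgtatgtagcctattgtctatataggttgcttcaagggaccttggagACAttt
Among the 180 snoRNA and scaRNA genes tested, 26.1% held the C/D letters, 41.7% the ACA letters and 0.556% both.

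Gm22486 had a lowest, median and highest level of 1.12, 2.09 and 55.4 CPM in p53fl/fl, 7.65, 40.2 and 94.3 CPM in p53R172H/fl, and 36.7, 49.0 and 81.4 CPM in p53R245W/fl. The p53fl/fl libraries fell into the sets, with 1.12 to 2.47 CPM in the 8 F libraries against 41.6 and 55.4 CPM in the pair of R553 libraries. The pooled log2 fold change was 2.03 (SE 0.38, adjusted p = 0.0483, edgeR) with the set term and 1.95 (adjusted p = 0.0673) without it. It was 3.78 in the F set and 0.12 in the R553 set. The p53R172H/fl effect differed between the sets by -3.66 on the log2 scale (R553 minus F, adjusted p = 0.00209, edgeR interaction). The call was lost in 25 of 34 single-library omissions. Snord15a and Gm26165 had log2 fold changes of 1.27 (adjusted p = 0.0471, edgeR) and 1.80 (adjusted p = 0.0263) without the set term, of 0.82 and 1.73 with it, and of 0.03 and -0.06 in the R553 set alone.

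The summed level of snoRNA genes differed by set as well as by genotype. Their summed level had a median of 1790 CPM in p53fl/fl and 3534 CPM in p53R172H/fl within the F set. Within the R553 set the medians were 5368 CPM in p53fl/fl, 4156 CPM in p53R172H/fl and 5387 CPM in p53R245W/fl. Of the 180, 8 were called higher and 3 lower without the set term, against 1 higher and 0 lower with it. Over all genes 0.38% were called higher and 1.09% lower without the term. By group with the set term, 8 of the 180 were called higher in p53R172H/fl and 0 in p53R245W/fl, beside 15 and 1 of all 18959 genes. In the F set alone 26 of 163 were called higher and 1 lower, beside 50 and 45 of 17847 over all genes. Without p53R245W/fl tumours 1831, 1835 and 1580, of which the first pair had the highest snoRNA sums of all 34 libraries (9949 and 9528 CPM), 3 of the 180 were called higher and 3 lower without the set term. Their median log2 fold change was 0.33 with the set term, 0.48 in the F set, 0.03 in the R553 set and 0.23 in the R1002 libraries, beside a median of 0.02 over all genes tested with the set term. The 75 genes with ACA letters had a median of 0.64 with the set term and the 47 with C/D letters 0.12. In the same order the medians were 0.87 and 0.15 in the F set, -0.06 and 0.04 in the R553 set, and 0.32 and -0.10 in the R1002 libraries. Libraries were labelled as mRNA libraries, and reads of a snoRNA gene cannot be told apart from reads of the intron of its host.

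Replication-dependent histone genes were 6 of the 8 largest rises that the naming rule took in the fit without the set term. The rule asks for a call in every fit that leaves out 1 library, a mean of at least 1 CPM and a regular gene symbol, so larger called rises such as AA465934 (2.13) stand outside it. These histones package DNA newly made in S phase, and their transcripts mostly lack a poly(A) tail. All 59 tested genes with Hist1 to Hist4 symbols were taken as a class, chosen after their values were seen. Without the set term 18 of 59 were called higher and 0 lower, beside 0.38% called higher over all genes. With it 0 were called, while 35 of 59 were higher at an unadjusted p under 0.05, beside 939 of 18959 over all genes (4.95%, or 8.68% in either direction). The 18 called comprised 7 of 15 H2A, 5 of 11 H3, 3 of 13 H4, 2 of 14 H2B and 1 of 6 H1 genes. The class median was 0.91 on the log2 scale without the set term and 0.78 with it. With the set term it was 0.58 in p53R172H/fl and 0.97 in p53R245W/fl. The highest summed levels of the class, 9586 and 6809 CPM, were in p53R245W/fl tumours 1835 and 1831, which also had the lowest Col1a1 and the highest snoRNA sums. Without these and tumour 1580, left out after seeing the data, the class median with the set term was 0.53 in p53R245W/fl and 0.55 in the pooled comparison. Then 13 of 59 were called higher without the set term, beside 0.243% of all genes. With all tumours kept, the class median was 0.59 in the F set, 0.88 in the R553 set and 0.53 in the R1002 libraries.

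Hist1h2ab, an H2A gene, shows the range. It had a lowest, median and highest level of 3.38, 7.39 and 21.1 CPM in p53fl/fl, 11, 18.5 and 79.8 CPM in p53R172H/fl, and 15, 38.4 and 159 CPM in p53R245W/fl. All 24 missense libraries lay above the p53fl/fl median, and 5 p53R172H/fl and 10 p53R245W/fl libraries lay above the p53fl/fl maximum. It was 2.07 log2 units higher (SE 0.39, adjusted p = 0.00595, edgeR) without the set term and 1.38 (SE 0.34, adjusted p = 0.22) with it. Within the R553 set, 16.6 and 21.1 CPM in p53fl/fl stood beside a p53R172H/fl median of 47.5 CPM and a p53R245W/fl median of 38.4 CPM.

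The naming rule took 5 more histone genes, and each of these was called without the set term in all 34 single-library omissions. Hist1h2ah had a log2 fold change of 2.21 without the term and 1.40 with it. Hist1h2ae had 1.98 and 1.33, and Hist1h3h 1.88 and 1.41, in the same order. Hist1h2ag had 1.85 and 1.23, and Hist1h4j 1.57 and 1.28. In the R553 set alone the 5 values ran from 1.09 (Hist1h3h) to 1.49 (Hist1h4j), and in the R1002 libraries from 0.32 (Hist1h2ag) to 1.15 (Hist1h2ae). The fits therefore gave 1 direction for all 5 genes, with calls in the fit without the set term only; their adjusted p with the term ran from 0.224 to 0.342 (edgeR). Copies of these genes are alike in sequence, so counts of single members are uncertain.

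Genes of other steps of cell division were described by 2 lists, beside 0.0211% of all genes called with the set term and 1.47% without it. In a list of 30 genes of mitosis and the centromere 0 were called with the set term and 1 was called without it. The list had a median of 0.22 with the term, and its summed level had a median of 1437 CPM in p53fl/fl, 1537 CPM in p53R172H/fl and 1464 CPM in p53R245W/fl. The 1 called member, Hjurp, the chaperone that loads the centromeric histone variant, fell by 0.73 on the log2 scale without the set term (adjusted p = 0.0263, edgeR). Its median was 260 CPM in p53fl/fl, 294 CPM in p53R172H/fl and 132 CPM in p53R245W/fl, so the p53R172H/fl median was the highest of the 3. The 31 genes of DNA replication and repair had 0 called in either fit and a median of 0.16 with the set term.

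**Figure D3:**
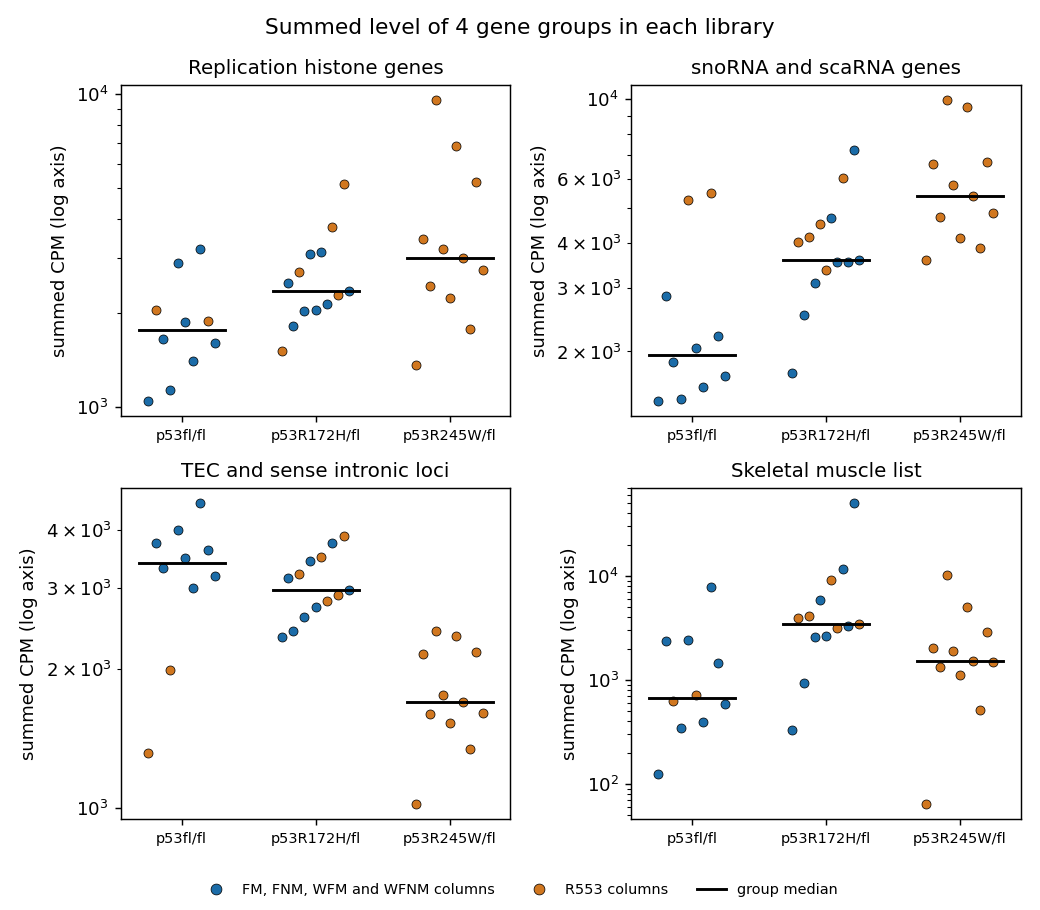
Summed CPM on a log axis of 4 gene groups in each of the 34 libraries, by genotype, with points coloured by column prefix and black lines at group medians. Replication histone genes had medians of 1763, 2343 and 3005 CPM in p53fl/fl, p53R172H/fl and p53R245W/fl, and the pair of p53fl/fl libraries of the R553 set had more snoRNA and less TEC and sense intronic signal than the other 8.

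Ndufaf8, which encodes a factor for assembly of respiratory complex I, was, with Trp53 and the 6 histone genes, among the 8 largest rises that met the naming rule. Its median was 3.82 CPM in p53fl/fl, 6.86 CPM in p53R172H/fl and 9.51 CPM in p53R245W/fl. Its log2 fold change was 1.03 (adjusted p = 0.0137, edgeR) without the set term and 0.65 (adjusted p = 0.342) with it, and was above 0 in the F set (0.71), the R553 set (0.45) and the R1002 libraries (0.72).

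The named genes that fell did so in the fit without the set term. None of those described next passed the threshold with the term. Zbtb2, a zinc-finger transcription factor known to repress p53-pathway genes, ranged from 19.7 to 49.0 CPM in p53fl/fl, 14.2 to 26.4 CPM in p53R172H/fl and 10.8 to 23.1 CPM in p53R245W/fl. All 24 missense libraries lay below the p53fl/fl median of 27.2 CPM, and 8 of 13 p53R172H/fl and 9 of 11 p53R245W/fl lay below its minimum. It fell by 0.73 on the log2 scale without the set term (SE 0.13, adjusted p = 0.00498, edgeR) and had -0.63 with it (adjusted p = 0.224), -0.35 in the R553 set and -0.46 in the R1002 libraries. Trip6, an adaptor at focal adhesions, had a median of 51.3 CPM in p53fl/fl, 37.8 CPM in p53R172H/fl and 40.3 CPM in p53R245W/fl. It fell by 0.65 without the term and had -0.58 with it, -0.55 in the F set, -0.91 in the R553 set and -0.63 in the R1002 libraries. For Trip6 the R553 value was thus further from 0 than the F value.

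For Zbtb2, at -0.68 in the F set, and the other named falls the R553 value was nearer to 0 than the F value or above 0. Sfr1, a partner in recombination repair, had a log2 fold change of -0.73 without the set term, -0.84 in the F set and -0.19 in the R553 set. Atxn2, an RNA-binding protein, had -0.66, -0.39 and -0.33 in the same order, and Ptms, a small acidic chromatin-associated protein, had -0.87, -0.73 and -0.13. These 3 genes, like Trip6 and Zbtb2, were below 0 in the R1002 libraries as well. Phf3, a regulator of RNA polymerase II, had -0.50, -0.62 and 0.02. Ciz1, a nuclear matrix protein linked to DNA replication, had -0.65, -0.21 and -0.06, with 0.02 in the R1002 libraries. By group without the set term, Ciz1 had -0.30 in p53R172H/fl and -0.99 in p53R245W/fl, and Atxn2 had -0.40 and -0.93. The missense groups differed in that fit for both genes (adjusted p = 0.00493 and 0.0103, edgeR). For Sfr1, Ptms and Phf3 that difference had an adjusted p of 0.661, 0.718 and 0.829 (edgeR).

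Spaca6, a gene for sperm and egg fusion that overlaps the microRNA genes Mir99b, Mirlet7e and Mir125a on the same strand, had the largest named fall without the set term, of 1.29 on the log2 scale (adjusted p = 0.00498, edgeR). Its p53fl/fl libraries ranged from 44.7 to 182 CPM in the F set and held 16.1 and 16.7 CPM in the R553 set, where the medians were 20.9 CPM for p53R172H/fl and 19.9 CPM for p53R245W/fl. The R553 value was 0.40, above 0. Mir5125, a microRNA locus within Srrm2 on the same strand, had -1.06 without the set term, -0.68 with it and 0.27 in the R553 set. By group without the term, Mir5125 had -0.50 in p53R172H/fl and -1.62 in p53R245W/fl, and Spaca6 had -0.89 and -1.69. In the F set, where only p53R172H/fl is compared, Spaca6 had -0.88 and Mir5125 -0.63. The R553 values, which pool both missense groups, were above 0 with SE 0.29 for Spaca6 and 0.40 for Mir5125. A difference of the p53R172H/fl effect between the sets was not called for either gene (adjusted p = 0.268 and 0.34, edgeR interaction).

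**Figure D4:**
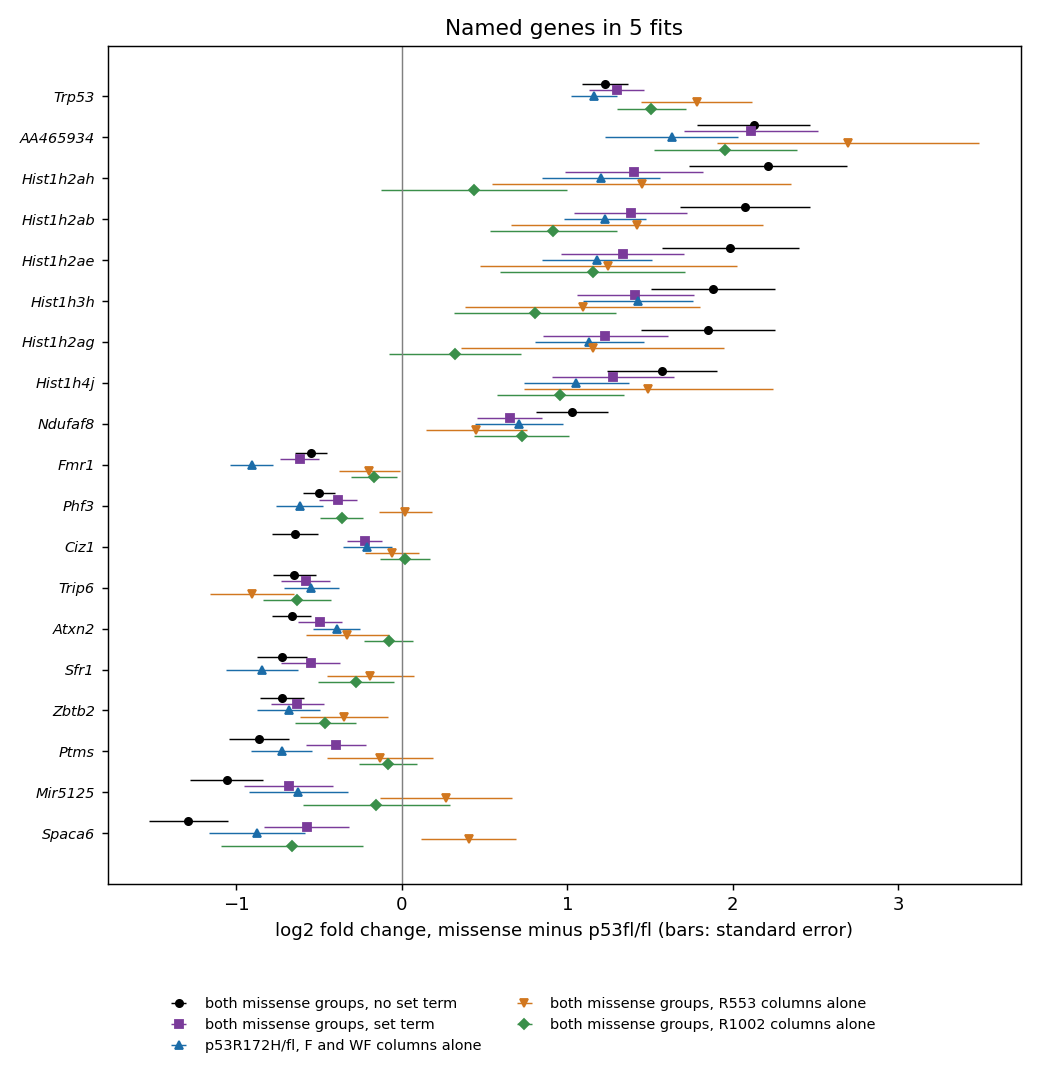
Log2 fold change of missense over p53fl/fl, with its standard error as a bar, for the named genes in 5 fits. Trp53 and AA465934 lay above 0 in all 5, the 6 histone genes lay above 0 with smaller values in fits that held set constant, and Spaca6 and Mir5125 lay on opposite sides of 0 in the R553 set and in the pooled fits.

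Loci of type TEC, which GENCODE lists with too little evidence for a gene model, and sense intronic loci were among those called lower without the set term. Of the 207 called lower, 61 were among the 1114 TEC loci tested, 12 among the 169 sense intronic loci and 92 among the 14752 protein-coding genes, beside 1.09% called lower over all genes. With the set term 0 of the 1114 TEC loci and 0 of the 169 sense intronic loci were called. The summed level of both classes had medians of 3546 CPM in p53fl/fl and 2850 CPM in p53R172H/fl in the F set. In the R553 set it had medians of 1656, 3207 and 1693 CPM in p53fl/fl, p53R172H/fl and p53R245W/fl. The median TEC log2 fold change was -0.28 in the F set and 0.70 in the R553 set. The class thus ran in opposite directions in the 2 sets.

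Skeletal muscle genes had the largest median of the 32 gene lists, and none of them passed the test. All 26 tested members were higher in missense tumours with the set term, with a median log2 fold change of 1.88 against 0.02 over all genes. Of these, 18 had an unadjusted p under 0.05, beside 4.95% of all genes higher at that threshold, and 0 were called in either fit (0.0211% and 1.47% over all genes). By group with the set term, 21 of the 26 were higher at that threshold in p53R172H/fl and 0 in p53R245W/fl. Over all 18959 genes, 946 and 1138 were. The list median was 2.24 in p53R172H/fl and 1.54 in p53R245W/fl. Ttn, the giant spring protein of the sarcomere, had a lowest, median and highest level of 70.3, 337 and 3624 CPM in p53fl/fl, 169, 1644 and 26734 CPM in p53R172H/fl, and 11.7, 678 and 4354 CPM in p53R245W/fl. Its log2 fold change was 2.19 (SE 0.83, adjusted p = 0.455, edgeR). Neb, a thin-filament protein, had 2.12 (SE 0.81), Atp2a1, the fast-muscle calcium pump, 2.41 (SE 0.90), and Myf6, a muscle-specific transcription factor, 2.29 (SE 0.87). The groups overlapped for all 4 genes. The summed level of the list ran from 124 to 7842 CPM in p53fl/fl, from 332 to 50398 CPM in p53R172H/fl and from 63.8 to 10157 CPM in p53R245W/fl. Of its markers Myod1, Myog, Myf6 and Myh7 were at 0 in at least 1 library, and the part of adjoining muscle in the difference was not tested. In bulk RNA, more cells of a type and more RNA per cell cannot be told apart. The median was 2.18 in the F set, 2.18 in the R553 set and 0.83 in the R1002 libraries.

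Of 38 textbook targets that p53 activates, 0 were called in either pooled fit, beside 0.0211% of all genes with the set term and 1.47% without it, and the median log2 fold change was 0.04 with the set term and 0.05 without it. Cdkn1a had medians of 55.2, 64.3 and 44.6 CPM in p53fl/fl, p53R172H/fl and p53R245W/fl and a pooled log2 fold change of -0.29 (SE 0.32, adjusted p = 0.874, edgeR). Mdm2 had medians of 55.2, 52.3 and 44.3 CPM and a pooled value of -0.13 (SE 0.15, adjusted p = 0.877). The groups overlapped for both genes. With the set term 5 of the 38 targets were higher and 0 lower at an unadjusted p under 0.05, beside 4.95% and 3.73% of all genes. These were Gadd45a, a damage-response protein, at 1.14 (SE 0.35), Plk2, a kinase of the centrosome cycle, at 0.93 (SE 0.32), the receptor gene Eda2r at 1.59 (SE 0.62), the antiproliferative gene Btg2 at 0.57 (SE 0.24) and the desmosomal gene Perp at 2.43 (SE 1.11). Their adjusted p ran from 0.342 to 0.537 (edgeR). Perp did not share a direction between the groups, with -0.39 in p53R172H/fl and 5.25 in p53R245W/fl, where its level ran from 0.103 to 254 CPM. In p53R245W/fl alone without the set term 4 of the 38 were called higher, beside 5.63% of all genes. They were Btg2 (1.09, adjusted p = 0.00578, edgeR), Perp (5.6, adjusted p = 0.00405), Plk2 (1.08, adjusted p = 0.02) and Gadd45a (1.19, adjusted p = 0.0243). Without tumours 1831, 1835 and 1580, of which the last held the Perp level of 254 CPM, 0 of the 38 were called higher in that comparison and 1, the repair gene Xpc, was called lower.

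The genes around Trp53 on chromosome 11 were also described. Of 52 tested genes within 500 kb of Trp53, 0 were called with the set term and 2 without it, 1 higher and 1 lower, beside 1.47% of all genes. The median log2 fold change of the 52 was 0.18 with the set term, against 0.02 over all genes. Of the 52, 38 were above 0, beside 9950 of 18959 over all genes. The median was 0.13 in the F set, -0.11 in the R553 set and 0.11 in the R1002 libraries. In the R553 set 22 of the 52 were above 0, beside 10547 of 18943 over all genes. By group with the set term, 2 were called higher in p53R172H/fl and 0 in p53R245W/fl, beside 15 and 1 of all 18959 genes. Atp1b2 (chr11:69599736-69605942, - strand), a beta subunit of the sodium pump encoded just beyond the 3′ end of Trp53, had a median of 0.991 CPM in p53fl/fl, 5.05 CPM in p53R172H/fl and 2.06 CPM in p53R245W/fl. It rose by 1.92 on the log2 scale without the set term (SE 0.48, adjusted p = 0.0321, edgeR) and had 2.27 with it (SE 0.55, adjusted p = 0.218). By group with the term, Atp1b2 had 2.82 in p53R172H/fl (adjusted p = 0.0133, edgeR) and 1.73 in p53R245W/fl (adjusted p = 0.406). The p53R245W/fl minus p53R172H/fl difference was -1.52 without the term (adjusted p = 0.0312, edgeR) and -1.09 with it (adjusted p = 0.3). Its call without the term was lost in 6 of 34 single-library omissions. Within sets it was 2.72 in the F set, 2.54 in the R553 set and 1.58 in the R1002 libraries. Of the missense libraries, 11 of 13 p53R172H/fl and 5 of 11 p53R245W/fl lay above the highest p53fl/fl library at 2.41 CPM.

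Wrap53 (chr11:69561758-69580255, - strand), which runs in the other direction from a start next to that of Trp53 and encodes a protein of Cajal bodies and telomerase, had medians of 9.10, 11.6 and 11 CPM in p53fl/fl, p53R172H/fl and p53R245W/fl. Its log2 fold change was 0.59 (SE 0.23, adjusted p = 0.47, edgeR). Gm25835, a snoRNA gene within Eif4a1, had 1.34 with the set term, 2.42 in the F set and -0.14 in the R553 set. Gps2, a subunit of a corepressor complex, fell by 0.63 without the set term (adjusted p = 0.0185, edgeR) and had -0.34 with it.

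**Figure D5:**
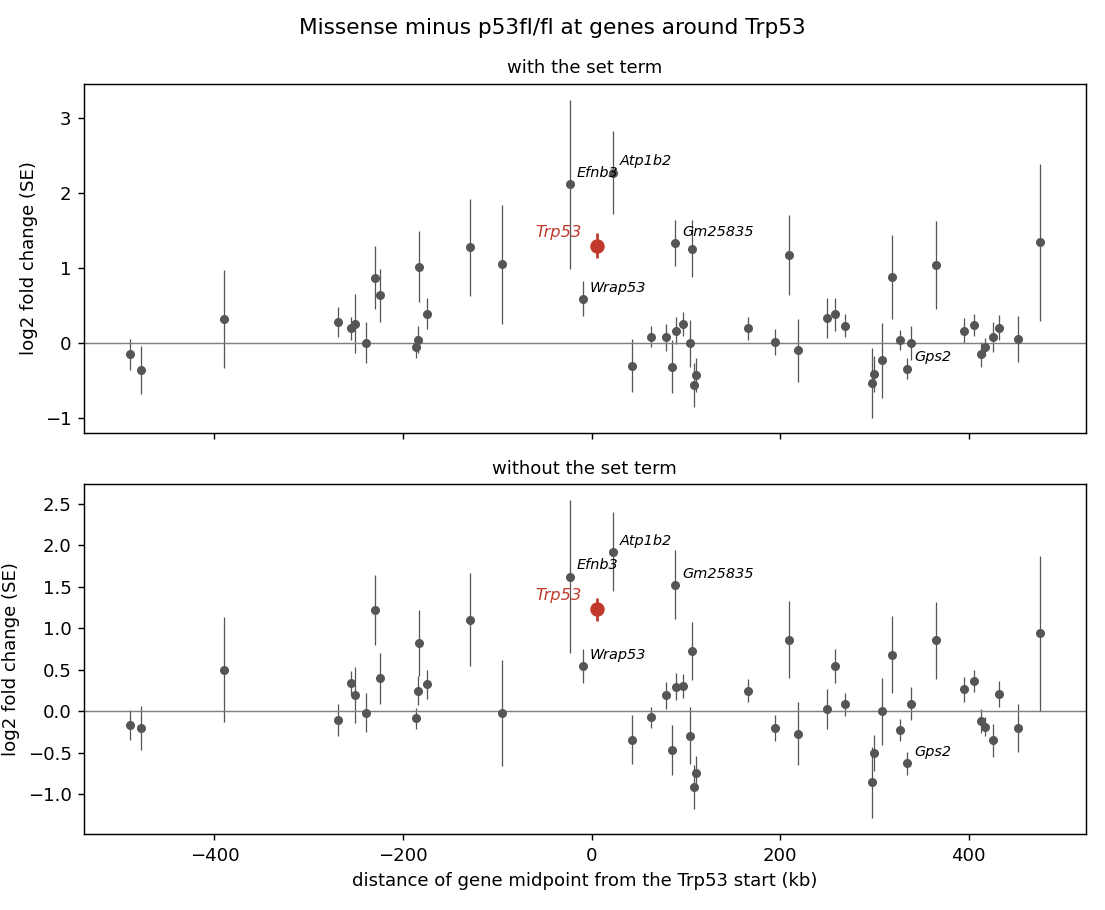
Log2 fold change of missense over p53fl/fl, with standard error bars, of the 52 tested genes within 500 kb of Trp53, by distance of the gene midpoint from the Trp53 start in kb, with the set term (upper) and without it (lower). Trp53 is the large red point at 1.30 and 1.23, and Atp1b2 beside it stands at 2.27 and 1.92.

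Among sets of housekeeping genes, calls were made without the set term only, where 0.38% of all genes were called higher and 1.09% lower. Single calls are given as values of the genes, not of their lists. Of 30 respiratory chain genes, 3 were called higher, namely the complex I genes Ndufb6 (0.74, adjusted p = 0.0213, edgeR) and Ndufa9 (0.54, adjusted p = 0.0481) and the complex IV gene Cox5b (0.61, adjusted p = 0.0302). The list had a median of 0.30 without the term, 0.21 with it and -0.10 in the R553 set. Of 27 proteasome genes Psmb4, a core beta subunit, was called (0.67, adjusted p = 0.0471), and of 32 cytosolic ribosome genes Rpl13, a large-subunit protein, was called (0.77, adjusted p = 0.0383). In the R553 set, with 2 p53fl/fl libraries, Ndufb6 had -0.06 (SE 0.21), Ndufa9 -0.07 (SE 0.21) and Psmb4 -0.11 (SE 0.22). These values were smaller in size than their SE, so a change of direction is not shown. By group without the set term, Ndufb6 had 0.28 in p53R172H/fl and 1.19 in p53R245W/fl, Cox5b 0.18 and 1.05, and Psmb4 0.31 and 1.02. Ndufa9 had 0.43 and 0.66 in the same order, and Rpl13 0.67 and 0.88. Of 23 genes of endoplasmic reticulum stress Dnajb9, a chaperone of that compartment, fell by 0.47 without the set term (adjusted p = 0.0496) and had -0.49 with it (adjusted p = 0.369).

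Of 24 genes of cholesterol synthesis, a pathway reported to be raised by missense p53, 0 were called in either fit. The median was 0.25 with the set term and 0.34 without it, and 6 were higher and 0 lower at an unadjusted p under 0.05 with the term, beside 4.95% and 3.73% of all genes. Sqle, a rate-limiting oxygenase of the pathway, had medians of 38.2, 57.4 and 73.0 CPM in p53fl/fl, p53R172H/fl and p53R245W/fl and a log2 fold change of 0.91 (SE 0.42, adjusted p = 0.542, edgeR). It was above 0 in the F set (0.93), the R553 set (0.66) and the R1002 libraries (0.63).

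Bone and stromal lists gave 0 calls in either fit. The 28 osteoblast and bone matrix genes had a median of -0.28 with the set term, of -0.03 in p53R172H/fl and -0.59 in p53R245W/fl, and 25 of the 28 were below 0 in the pooled fit. Over all genes 9009 of 18959 were below 0. By group 15 of the 28 were below 0 in p53R172H/fl and 26 in p53R245W/fl, which includes tumours 1831, 1835 and 1580 of lowest Col1a1. The summed level of that list ran from 57756 to 191579 CPM in p53fl/fl, 57911 to 205603 CPM in p53R172H/fl and 6832 to 245872 CPM in p53R245W/fl. Macrophage genes (18 tested) had a median of 0.12 with the set term, beside 0.02 over all genes. The missense groups did not share a direction there, with -0.18 in p53R172H/fl and 0.35 in p53R245W/fl. T and NK cell genes (23 tested) had a median of 0.62, with 0.50 in p53R172H/fl and 0.74 in p53R245W/fl. Their summed levels were 27.6 to 122 CPM, 28.7 to 156 CPM and 16.5 to 333 CPM in p53fl/fl, p53R172H/fl and p53R245W/fl.

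Each missense group was also tested alone. With the set term p53R172H/fl gave 53 calls (0.28%), 15 higher (0.0791%) and 38 lower (0.2%), and p53R245W/fl gave 1 (0.00527%), which was Trp53, called higher. The direct comparison of the missense groups with the set term called 0 genes (0%) by edgeR, with 3289 at an unadjusted p under 0.05 (17.3%). Without the set term 12 of the 279 pooled calls were also called in each missense group alone, 23 in p53R172H/fl and 258 in p53R245W/fl, beside 0.19% and 11.3% called over all genes in those groups. Of the 279, 132 had the same sign in the F set, the R553 set, the R1002 libraries and each missense group, 55 of them higher and 77 lower. Another 6 could not be judged because a set did not test them. The same count over all genes is not given here. These signs are not independent of the calls, since the sets are parts of the 34 libraries. The R1002 libraries were matched to tumours of the 34 in an earlier analysis of these data. The 12 called in each missense group alone include Trp53, AA465934, Fmr1, Sfr1, Trip6 and Phf3.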

How the data were processed

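RNA of frozen primary mouse osteosarcomas was measured with stranded mRNA libraries, per the labels' protocols. The deposited table holds raw read counts per gene, which the authors did not normalize. Per the submitters' processing notes, reads were aligned with STAR to GRCm38. Neither its version nor the counting program and annotation are named there. No gene of the table had fewer than 260 counts over all 52 libraries. Of 20730 identifiers 20668 matched GENCODE M21 on GRCm38.

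The 18 libraries with the prefix R1002 were matched to tumours already among the other 34 in an earlier analysis of these data, so they entered only an alternative. Total counts of the 34 ran from 36606728 to 67223388, with a median of 53313200. In R 4.3.3, edgeR 4.0.16 fitted robust quasi-likelihood models with TMM factors, filterByExpr at a minimum count of 10, 3 genotype coefficients and library set as a covariate, tested on simulated data first. The contrast was the mean of both missense groups minus p53fl/fl. Standard errors were taken from the fold change and the F statistic, and the prior count on the log scale was 2. Interactions tested whether the p53R172H/fl effect differed between sets. Alternatives used limma 3.58.1 and DESeq2 1.42.0.

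The members, lists and tests were chosen with earlier results of these data known. Lists were described by counts and medians, with no test of the list. The naming rule took Trp53 and, among genes called with the same sign in each missense group and in every fit leaving out 1 library, with a mean of at least 1 CPM and a regular symbol, the 8 largest rises, 8 largest falls and 8 smallest p-values, plus 3 called genes per list, or 2 uncalled ones as values. As the reported test called 4 genes, the rule was applied to the fit without the set term, a choice made after that count was seen. AA465934, Gm22486, Snord15a, Gm26165, Gm25835, Atp1b2, Wrap53, the p53 targets, Sqle and the muscle genes other than Ttn were named after their values were seen, and values of many uncalled list members are left out for length.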

Additional observations from a re-analysis of the deposited data

Results flagged for a closer look

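The p53R172H/fl effect differed between library sets for 3 snoRNA genes of the report, by an interaction term in edgeR. Gm22486 differed by -3.66 on the log2 scale (R553 set minus F set, adjusted p = 0.00209), Gm26165 by -3.39 (adjusted p = 0.00835) and Gm25835 by -2.69 (adjusted p = 0.0152). Over all genes tested, 28 had such an adjusted p under 0.05. In each case the p53fl/fl libraries of the R553 set were far above those of the F set. For Gm25835 the F set ran from 24.8 to 67.6 CPM, against 389 and 578 CPM in the R553 set. For Gm26165 the F set ran from 1.36 to 3.40 CPM, against 19.0 and 21.9 CPM.

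Cox5b stood at 115.7 CPM in p53fl/fl tumour 6019, apart from the other 9 p53fl/fl libraries at 42.1 to 64.2 CPM. Chance flags about 1 in 20 groups in this way. That rate is for libraries of a group that are alike, whereas these came from both sets. The p53fl/fl libraries ran from 42.1 to 60.7 CPM in the F set, and the R553 pair stood at 64.2 and 115.7 CPM.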

How the results depend on the processing

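The pooled count of 4 was 279 without the set term, 10 with the missense libraries as 1 group, 82 by DESeq2, 3 by limma voom, 1 with RLE factors, 8 with no filter and 2 at a minimum count of 50. It was 95 in the F set alone, where only p53R172H/fl is compared, 0 in the R553 set alone (810 at an unadjusted p under 0.05 by edgeR), 1 in the R1002 libraries, 2 without p53R245W/fl tumours 1831, 1835 and 1580, and 3 with a covariate for the count share of TEC and sense intronic loci. Without the set term and those 3 tumours, an alternative chosen after seeing the data, it was 236. The count with the same direction in each missense group was 278 without the set term, 82 by DESeq2, 1 with RLE factors, 8 with no filter, 2 at a minimum count of 50, 0 in the R553 set, 1 in the R1002 libraries, 2 without the 3 tumours and 236 without these and the set term. Leaving out 1 library at a time gave 1 to 11 calls, all in the same direction in each missense group. The most were 11 without p53fl/fl tumour 4183 and 8 without p53fl/fl tumour 6019. Without the set term, leaving out 1 library at a time, also added after seeing the data, gave 85 to 960 calls, of which 85 to 958 had the same direction. The cause was not tested.

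The Trp53 log2 fold change stayed past the threshold under each alternative except the R553 set alone (1.78, adjusted p = 0.499, edgeR), where 2 p53fl/fl libraries remain, and ran from 1.17 to 1.34 over the single-library omissions. DESeq2 gave 51 higher and 31 lower genes, a split unlike that of the fit without the set term.

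The sign changed for the following genes. Of the values given next for the R553 set, the R1002 libraries and the F set, all but that of Spaca6 were smaller in size than their standard error. In the R553 set alone Spaca6 had 0.40, Mir5125 0.27, Phf3 0.020, Ndufb6 -0.056, Ndufa9 -0.074, Psmb4 -0.11, Gm26165 -0.064 and Gm25835 -0.14. In the R1002 libraries Ciz1 had 0.019, Psmb4 -0.0086 and Mdm2 0.036. In the F set alone Perp had -0.42, Cdkn1a 0.13 and Mdm2 0.018. Cdkn1a also had 0.14 without the set term and the 3 tumours, and ran from -0.37 to 0.10 over all single-library omissions with or without the term.

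No paired analysis was possible because the labels give each tumour its own number and no number is shared between genotypes. A set with 2 p53fl/fl libraries limits what the set term can estimate, and the p53R245W/fl group has no library in the F set.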
